A study of Homo sapiens with 12 samples.

Results

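The regions described here are stretches of open chromatin that had a peak where either isoform of C/EBPα had been added and none with an empty vector. In KO-52 cells, a human acute myeloid leukaemia (AML) cell line, peaks of ATAC-seq were compared between cells carrying p42, cells carrying p30 and cells carrying an empty vector (EV). Peaks of all lists on chromosomes 1 to 22 and X that overlapped by at least 1 bp were merged, and a region was a member if both p42 lists and both p30 lists held a peak and neither EV list did. Of 355051 merged regions 2221 met this rule, which is 0.626%. Since the members were chosen by the presence of peaks in these lists, their peak values in the p42 and p30 lists are given as a description, also where values of other regions stand beside them. Sequence and position were not used by the rule.

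ATAC-seq cuts accessible DNA with the Tn5 transposase, so that fragments pile up where chromatin is open. The 12 samples fall into 6 conditions with 2 replicates each, namely EV, p42 and p30 cells in DMSO (the solvent control) or in tunicamycin (Tm) at 2 µg/mL for 8 h, with 50000 nuclei per sample. All KO-52 cells, the EV control included, carry mutations on both alleles of their own CEBPA gene, and the isoforms came from introduced vectors. Such mutations commonly leave p30 as the isoform made, so the EV cells are not a control without C/EBPα, and their own C/EBPα was not measured here. The authors pooled the replicates and gave 1 peak list per condition, so no value below has a replicate spread and no test between conditions was possible. The lists held 187704 to 254239 peaks, at an estimated depth between 22200000 tags (EV, DMSO) and 30000000 tags (p42, DMSO). The EV DMSO list was the shallowest and the p42 DMSO list the deepest, and a region without a peak is not shown to be closed.

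C/EBPα is a transcription factor of the bZIP family that drives myeloid differentiation and can open chromatin at its sites together with partners such as PU.1, the ETS factor of myeloid enhancers. The full-length isoform p42 and the shorter p30, which lacks N-terminal transactivation domains, share the DNA-binding domain and therefore recognise the same word. C/EBP proteins also pair with AP-1 and ATF proteins, such as FOS, JUN and ATF4, and these pairs read hybrid words made of a C/EBP part and an AP-1 or ATF part. GATA factors mark stem, erythroid and megakaryocytic enhancers, and AP-1 dimers bind a word of their own at inflammatory and stress-responsive enhancers.

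The sequences printed first are those of members that hold the words the results turn on. Each is the plus strand of hg38, 5′ to 3′, with the matched word in capitals and 30 bases on each side. For each word the 3 members with the highest least percentile over the p42 and p30 lists are shown. The PU.1 word searched was GAGGAAGT, the C/EBP words were TTGCGCAA and TTGTGCAA, and the C/EBP:AP-1 word was TGTTGCAA, each on either strand within 100 bp of the mean summit. The PU.1 members were picked once the values were known.
PU.1 word, chr21:27476879-27476946: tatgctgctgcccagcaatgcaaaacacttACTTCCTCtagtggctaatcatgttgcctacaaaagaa
PU.1 word, chr20:19573392-19573459: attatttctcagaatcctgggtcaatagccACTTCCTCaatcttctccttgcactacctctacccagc
PU.1 word, chr17:20803866-20803933: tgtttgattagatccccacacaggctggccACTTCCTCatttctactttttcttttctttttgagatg
C/EBP word, chr1:169473555-169473622: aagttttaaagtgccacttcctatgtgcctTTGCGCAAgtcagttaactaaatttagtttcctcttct
C/EBP word, chr6:109298776-109298843: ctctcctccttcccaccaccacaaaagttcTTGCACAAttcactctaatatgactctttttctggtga
C/EBP word, chr2:144686936-144687003: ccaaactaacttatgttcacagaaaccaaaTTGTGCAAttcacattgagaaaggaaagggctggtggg
C/EBP:AP-1 word, chr2:20888415-20888482: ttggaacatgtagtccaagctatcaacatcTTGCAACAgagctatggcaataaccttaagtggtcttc
C/EBP:AP-1 word, chr6:143040770-143040837: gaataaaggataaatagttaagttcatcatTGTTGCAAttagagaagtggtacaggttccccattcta
C/EBP:AP-1 word, chr14:57388265-57388332: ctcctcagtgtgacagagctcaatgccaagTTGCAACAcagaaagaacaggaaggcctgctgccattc

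The number of members was of the same order as that of the mirrored patterns, in which the line that lacks the peak is another. Regions with a peak in both EV and both p30 lists and no p42 list numbered 2844, and those with a peak in both EV and both p42 lists and no p30 list numbered 1642. The members therefore lay between both mirrored counts. By contrast, 16258 regions had a peak in both p42 lists alone, against 2190 in both p30 lists alone and 1983 in both EV lists alone. A further 3652 regions missed the rule only by a peak in the EV DMSO list, and 4450 only by a peak in the EV Tm list.

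The members were weak peaks beside those shared by all lists, and no weaker than peaks found with a single isoform. Ranked by −log10 q within its own list, where 100 is the strongest peak, the median member stood at percentile 44.0 in p42 DMSO, 34.0 in p42 Tm, 27.5 in p30 DMSO and 20.9 in p30 Tm. Regions with a peak in all 6 lists stood at medians of 76.7, 72.9, 72.0 and 69.0 in the same lists. Regions with a peak in both p42 lists alone had medians of 37.7 and 26.2 in p42 DMSO and p42 Tm, and those with a peak in both p30 lists alone 21.0 and 20.9 in p30 DMSO and p30 Tm. The summit of the median member held 9 tags in p42 DMSO, 8 in p42 Tm and 7 in each p30 list, and the fewest tags of any called peak was 4. Its fold enrichment over the local background was 5.41, 5.20, 4.43 and 4.63 in that order. No member reached a −log10 q of 10 in all 4 lists, 78 reached 5 and 976 (43.9%) reached 3. In the p30 DMSO list the strongest member stood at percentile 72.0, and in the p42 DMSO list at 98.1. The median width of a member was 163 bp, against 361 bp for regions with a peak in all 6 lists, 147 bp for all regions, 139 bp for both p42 lists alone and 113 bp for both p30 lists alone.

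**Figure D1:**
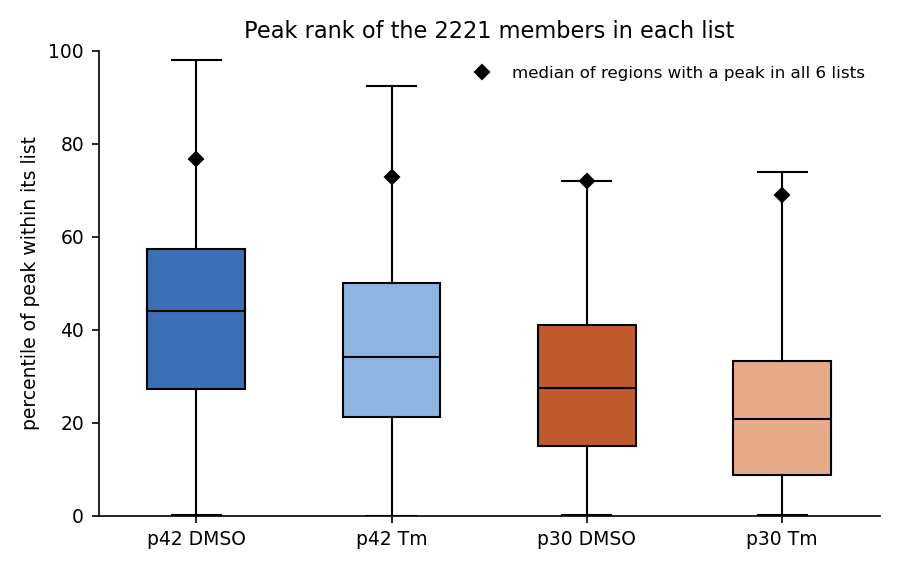
Percentile of the peak within its list (vertical axis) for the 2221 members in each p42 and p30 list, with the box from the lower to the upper quartile, the line at the median and whiskers at the lowest and highest member. Diamonds mark the medians of regions with a peak in all 6 lists, which lie above every box.

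Just outside the rule, the extra EV peaks were weak as well. In the 3652 regions with an EV DMSO peak besides those of both isoforms, that peak had a median −log10 q of 4.57 and a median of 7 tags, and its −log10 q ranged from 1.31 to 15.6. In the 4450 with an EV Tm peak the median was 4.61 with 8 tags. Just inside, the lowest −log10 q of a member in any p42 or p30 list was 1.30, which is the q-value threshold of 0.05. The extra EV peaks thus held about as many tags as the peaks of the members.

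Within the members, p42 peaks ranked above p30 peaks. The percentile was higher in p42 than in p30 for 1573 of 2221 members in DMSO (70.8%), with a median difference of 13.0 and quartiles of −0.585 and 31.8. In Tm it was higher for 1533 (69.0%), with quartiles of −6.24 and 26.7. Regions with a peak in all 6 lists had median differences of 2.51 and 2.06. On the scale of summit tags per 10000000 tags of estimated depth the same members differed by a median of 0.190 in DMSO and 0.151 in Tm, and the p42 value was higher for 59.3% and 57.9% of them. Regions in all 6 lists went the other way on that scale, with median differences of −0.258 and −0.282. The p42 DMSO list was the highest of the 4 for 48.3% of members, and the p30 Tm list the lowest for 45.5%.

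The ranks of a member with p42 and with p30 were only weakly related. Spearman's rho over the members was 0.110 between p42 and p30 in DMSO and 0.115 in Tm, against 0.784 and 0.790 over the regions with a peak in all 6 lists. Between DMSO and Tm it was 0.394 within p42 and 0.139 within p30. These correlations are over regions of the same 4 lists, and the members span a smaller part of the ranking. After tunicamycin the members ranked lower, by a median of 7.87 percentile points in p42 and 2.49 in p30, while their depth-scaled summit tags were higher by a median of 0.0835 and 0.282. Regions in all 6 lists showed the same signs on both scales. The direction of the Tm difference thus depended on the scale, and depth, which was lower in Tm than in DMSO for both isoforms, moved with it.

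The ends of this spread were chosen for their values. A region of 671 bp at chr4:63505672-63506342, in an intron of a gene without a symbol, held 36 tags in p42 DMSO and 25 in p42 Tm, but 5 in p30 DMSO and 6 in p30 Tm. An intergenic region at chrX:77167979-77168554 held 24, 14, 4 and 12 tags in the same lists. At the other end, an intergenic region at chr20:22362532-22362636 held 4 tags in p42 DMSO, 9 in p42 Tm, 13 in p30 DMSO and 6 in p30 Tm. Each of these regions satisfied the rule although its levels in p42 and p30 were far apart in DMSO. In Tm the tags of the region on chromosome X were close, and those of the region on chromosome 20 were higher with p42.

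The 10 members with the highest least percentile over the p42 and p30 lists were all intronic or intergenic, as were 58.2% and 34.5% of all members. The first, at chr10:12515587-12515690 in an intron of CAMK1D, which encodes a calcium/calmodulin-dependent kinase, held 11 tags in p42 DMSO, 10 in p42 Tm, 13 in p30 DMSO and 11 in p30 Tm, and its least percentile was 57.6. The 4 lists were close to each other there. The second, at chr14:99614262-99614416 and 10.1 kb upstream of CCDC85C, held 11, 12, 12 and 10 tags. The third, at chr5:102772353-102772596 in an intron of PAM, which encodes a peptide-amidating enzyme, held 17, 20, 10 and 10 tags and was thus higher with p42. The others lay in CACNA1B, EAF2, MIR548A1HG and a gene without a symbol, and between genes near BMP5, ZNF621 and ADAMTS5, and each of their summits held from 9 to 20 tags. No member of the 10 had a C/EBP, C/EBP:AP-1 or ATF4 word within 100 bp of its mean summit. Of all members only 5.58% had one, so 10 are too few to tell a difference.

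The word of PU.1 was more frequent in the members than in all regions, though not in every part of the p42 DMSO ranking, as given below. It lay within 100 bp of the mean summit in 232 members, or 10.4% (95% Wilson interval 9.24 to 11.8), against 6.90% of all regions. In windows shifted by 500 bp to higher coordinates it was found in 1.13% of members and 1.05% of all regions. PU.1 words peaked within 40 bp of the summit, with 35.1 and 42.8 matches per 1000 members in the 40 bp on either side, against 23.9 and 26.1 per 1000 of all regions. The share was 10.8% in members over 1000 bp from a transcription start site (TSS) and 8.11% in those nearer, against 7.36% and 4.35% of all regions. In members under 45% GC it was 12.5%, against 8.68% of all such regions, and in the others 8.38% against 5.44%. A share as high was found where an EV peak was also present, with 10.3% of regions that had an EV DMSO peak besides and 9.82% of those that had an EV Tm peak. The PU.1 word thus set the members apart from all regions but not from these neighbours, whose shares lay within the interval of the members. Regions with a peak in both EV and both p30 lists but no p42 list held it least, with 4.01% (3.35 to 4.79). Those with a peak in both EV and both p42 lists but no p30 list held it in 8.83%. With lists of equal size that share was 9.95%, against 9.77% of the members.

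The C/EBP word itself was rare among the members. It was found in 38 of them, or 1.71% (1.25 to 2.34), an interval that includes the 1.57% of all regions, while 6.12% (5.76 to 6.50) of the regions with a peak in both p42 lists alone held it. In regions with a peak in both p30 lists alone the share was 0.502% (0.281 to 0.897), below that of the members. Regions with a peak in both EV and both p42 lists but no p30 list held it in 1.83%, within the interval of the members. Those of EV and p30 without p42 held it in 0.387%. Where the members were limited to those whose p42 and p30 peaks all reached a −log10 q of 3, the share was 2.97% (2.08 to 4.23), with that threshold in all 6 lists 2.67% (2.04 to 3.50), and with lists of equal size 2.37% (1.70 to 3.30). These intervals lie above 1.57%, but the share of all regions was not computed under these settings. The looser word TTGCNNAA was found in 14.9% of members (13.5 to 16.4), against 13.1% of all regions, 29.6% for both p42 lists alone and 8.22% for both p30 lists alone. On both words the members thus stood between the regions of p42 alone and those of p30 alone.

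The hybrid words of C/EBP with AP-1 or ATF partners were found more often in the members than in all regions. The C/EBP:AP-1 word was held by 45 members, or 2.03% (1.52 to 2.70), against 1.16% of all regions, and in windows shifted by 500 bp by 0.405%. Regions with an EV DMSO or an EV Tm peak besides held it in 0.986% (0.713 to 1.36) and 1.06% (0.795 to 1.40), and these intervals lay below that of the members. The word TGATGCAA, which C/EBP:ATF pairs such as that with ATF4 read, was held by 43 members, or 1.94% (1.44 to 2.60), against 1.26% of all regions. For this word the neighbours were not alike, with 0.986% for an EV DMSO peak and 1.80% for an EV Tm peak besides. Together, 124 members (5.58%) had a C/EBP, C/EBP:AP-1 or ATF4 word, against 3.93% of all regions and 13.2% of those with a peak in both p42 lists alone. The remaining members had none of these words, and no match says only that these letters are not in the window. The word TTACGTAA or TTATGTAA, read by the bZIP proteins NFIL3 and HLF, was held by 1.94% against 1.23%.

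GATA words were rarer in the members than in the other 9 sets compared. The word AGATAAG was held by 30 members, or 1.35% (0.948 to 1.92), against 3.22% of all regions. Windows shifted by 500 bp from the same summits held it in 2.84% (2.22 to 3.61) on one side and 2.30% (1.75 to 3.01) on the other, of which the latter overlaps the interval at the summits. It was held by 2.88% (2.38 to 3.47) of regions with an EV DMSO peak besides and by 2.58% (2.16 to 3.09) of those with an EV Tm peak, and both intervals lay above that of the members. With a −log10 q of at least 3 in all 6 lists the share of the members was 1.99%, just outside the interval given above. For regions with a peak in both p30 lists alone, at 2.47% (1.89 to 3.20), the intervals overlapped. Regions with a peak in both EV lists alone held it in 7.67% (6.57 to 8.92), and regions of EV and p30 without p42 in 5.94% (5.13 to 6.87). The low share was seen in each of the lower 3 parts of the p42 DMSO ranking that were cut at percentiles 25, 50 and 75, with 1.22%, 1.51% and 1.44% against 3.25%, 3.10% and 3.36% of all regions. In the top part, 0 of 102 members held the word, so few that no share can be read from them.

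The word TGAGTCA, which AP-1 dimers bind, was held by 168 members, or 7.56% (6.54 to 8.74), against 9.57% of all regions. It was still more frequent at the summits than in windows shifted by 500 bp, which held it in 2.70%. Of regions with a peak in both EV and both p30 lists but no p42 list 23.9% held it, of those in both EV lists alone 18.6% and of those in both p30 lists alone 12.1%, while those in both p42 lists alone held it in 5.86%. Regions with an EV DMSO peak besides those of both isoforms held it in 8.49% and those with an EV Tm peak in 8.07%, both within the interval of the members. On AP-1 the members thus stood between the regions of p42 alone and all regions, together with these neighbours. RUNX words were held by 9.10% of members (7.97 to 10.4) and 9.38% of all regions. Words with a high GC content were rarer in the members, with 2.21% against 4.57% for the SP/KLF word and 0.0450% against 0.444% for the ETS word CCGGAAGT of promoters. The cyclic AMP response word TGACGTCA was found in 0 of 2221 members, which allows a share of up to 0.135%, against 0.217% of all regions. Of 20 words searched, all regions lay outside the interval of the members for 11, of which 5 were more frequent in the members and 6 less.

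Members with a word of the C/EBP family leaned further towards p42 than the rest, though not they alone. The median difference in percentile between p42 and p30 in DMSO was 24.5 in the 38 members with the C/EBP word, against 12.9 without, and the p42 rank was the higher in 89.5% of them. It was 28.7 in the 45 with the C/EBP:AP-1 word and 28.6 in the 43 with the ATF4 word, of which 95.3% ranked higher with p42. PU.1 words showed no such difference, with a median of 10.5 with the word and 13.7 without. AP-1 words gave 12.2 and 13.0, and the 30 members with a GATA word 11.9. Other words leaned as well in DMSO, with 23.9 for NFIL3/HLF, 18.7 for IRF, 18.1 for MEIS and 16.9 for MYB. Members with RUNX, E-box, NF-kB, SP/KLF and CTCF words had 13.0, 12.2, 12.2, 11.5 and 5.76 in DMSO. In Tm the median differences were 19.8, 24.4 and 18.1 with the C/EBP, C/EBP:AP-1 and ATF4 words. With NFIL3/HLF and IRF words they were 16.1 and 20.9. With MEIS and MYB words they were 10.9 and 8.70 in Tm, below the 12.1 and 12.3 without. These are peak values that the rule used, and they have no test.

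Along the p42 DMSO ranking C/EBP words became more frequent, in the members as in the sets most like them. The C/EBP word was held by 0.610% of the 492 members up to percentile 25, by 1.28% of the next 862, by 2.61% of the next 765 and by 3.92% (1.54 to 9.65) of the 102 above percentile 75. The looser word went from 10.6% through 12.6% and 17.8% to 33.3% (24.9 to 42.9), while all regions of the same parts went from 15.3% to 12.2%. It rose likewise from 6.84% to 28.0% in regions with an EV DMSO peak besides, from 10.4% to 29.3% in those with an EV Tm peak and from 24.3% to 44.2% in those with a peak in both p42 lists alone, so this course is not particular to the members. PU.1 words were held by 13.2%, 9.86% and 10.2% of the members in the lower 3 parts, against 6.56%, 7.72% and 9.13% of all regions there. From percentile 50 to 75 the interval of the members (8.25 to 12.5) included the share of all regions. In the top part 4 of 102 members, or 3.92% (1.54 to 9.65), held it, against 7.24%. In the p30 DMSO ranking the PU.1 share was 11.3% up to percentile 25, 9.20% from 25 to 50 and 11.4% from 50 to 75. All regions of these parts held it in 6.86%, 7.71% and 8.52%. Along the p30 DMSO ranking the C/EBP word had no such course, with 1.48%, 2.14% and 1.10% of the members in the same separate parts.

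Members with a C/EBP word near the summit illustrate both cases. The region chr1:169473476-169473574, in an intron of SLC19A2, a thiamine transporter gene, held 8 tags in p42 DMSO, 9 in p42 Tm, 8 in p30 DMSO and 9 in p30 Tm. All 4 lists were alike there. Its C/EBP word lay 68 bp from the mean summit, past the end of the merged region, and an AP-1 word lay nearer to the summit. In contrast the region chr2:144686905-144687202, in an intron of the long non-coding gene TEX41 and 166 kb upstream of ZEB2, a repressor of the zinc finger family, had the word 1 bp from the summit and held 14, 15, 7 and 8 tags. A region at chr6:109298696-109298878 in CCDC162P held 24, 17, 14 and 13 tags. The 2 others of the strongest 5, near UXS1 and in SFI1, held 14, 11, 8 and 7 and 13, 10, 8 and 7 tags. In 4 of these 5 the p42 values were above the p30 values in both treatments.

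Of the 5 strongest members with the C/EBP:AP-1 word, the first lay at chr2:20888383-20888592, between genes and 65.4 kb upstream of LDAH, and held 15 tags in p42 DMSO, 8 in p42 Tm and 7 in each p30 list. The second, at chr6:143040799-143040954 near AIG1, held 8, 10, 7 and 7 tags. The third, at chr14:57388124-57388356 and 2.28 kb upstream of NAA30, held 25, 22, 18 and 16. The fourth was a region upstream of CLEC7A and is described with the myeloid genes, and the fifth, near ZFAT, held 17, 9, 8 and 7. Of the 5 strongest members with the PU.1 word, the region at chr21:27476819-27476934 held 9, 9, 11 and 9 tags, the one at chr20:19573405-19573643 in SLC24A3 held 12, 9, 11 and 9, and the one at chr17:20803644-20803960 held 10, 8, 9 and 10. The others, near BMP10 and CCND2, held 8, 10, 8 and 11 and 19, 11, 8 and 8. A choice by the lowest percentile favours regions with like values in the 4 lists.

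Most members were far from promoters. Within 1000 bp of a TSS lay 259 members, or 11.7% (10.4 to 13.1), against 15.6% of all regions and 24.5% of those with a peak in all 6 lists. Introns held 58.2% of the summits and intergenic sequence 34.5%, against 56.3% and 35.2% of all regions. The GC content around the summit had a median of 44.8%, against 46.3%. The nearest EV peak was at a median of 3152 bp, with 345 members (15.5%) within 500 bp of one and 418 (18.8%) beyond 10 kb. Members spread over the genome, with 0.303% (0.173 to 0.529) of the regions of chromosome 21 and 0.813% (0.656 to 1.01) of those of chromosome 14 as the extremes.

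The counts of members per window have no expected value beside them, so they do not show whether members cluster or avoid each other. Of windows of 100 kb, 2009 held 1 member, 100 held 2 and 4 held 3. One of the latter, on chromosome 15 from 68700001, spans ANP32A and CORO2B, a gene of an actin-binding coronin, and its members included a region 173 bp from the TSS of ANP32A with 18 tags in p42 DMSO, 15 in p42 Tm, 16 in p30 DMSO and 13 in p30 Tm. Another, on chromosome 3 from 127900001, spans KBTBD12 and MGLL, the monoglyceride lipase gene, and held 3 members of 14 regions. The others were on chromosome 6 at ECT2L and REPS1 and on chromosome 8 at CSMD3, and the next in order, at CACNA1B, held 2 members of 4 regions.

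Genes were described by the members near their TSS, over lists of granulocyte and monocyte genes, regulators and stress response genes. Among 19962 protein-coding genes, 2273 (11.4%) had a member within 50 kb of a TSS and 191 (0.957%) within 1000 bp. Of 33 granulocyte and monocyte genes 8 had a member within 50 kb (24.2%) and 2 within 1000 bp. These genes had a median of 23.0 merged regions within 50 kb, against 21.0 for all coding genes. Of the 8, 3 shared a single region.

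That region, chr19:840849-841023, lay 46 bp upstream of the TSS of PRTN3, between AZU1 and ELANE, which all encode proteases or protease-like proteins of azurophil granules. It held 15 tags in p42 DMSO, 9 in p42 Tm, 9 in p30 DMSO and 7 in p30 Tm, and had a PU.1 word, a looser C/EBP word and a MYB word near the summit. Its p42 DMSO value was thus the highest, and with each isoform the value in Tm was below that in DMSO. The nearest EV peak was 2279 bp away.

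CLEC7A, which encodes the fungal receptor dectin-1, had a member whose edge lay within 1000 bp of its TSS. This region, chr12:10131197-10131554, had the C/EBP:AP-1 word 22 bp from the summit and held 10, 10, 9 and 11 tags, so that the isoforms were alike. The word is shown in capitals with its flanks.
CLEC7A, chr12:10131240-10131307: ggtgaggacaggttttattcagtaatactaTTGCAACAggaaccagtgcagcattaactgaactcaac
A second member near CLEC7A, 33.0 kb upstream in an intron of OLR1, held a PU.1 word and 13, 12, 6 and 6 tags. Higher values with p42 were also seen 23.2 kb upstream of CD33, a myeloid sialic acid receptor gene, with 10, 10, 6 and 6 tags and a PU.1 word, and 29.7 kb upstream of CSF1R, the receptor gene of the macrophage growth factor, with 12, 10, 8 and 7. A region 43.8 kb from CD14, the lipopolysaccharide co-receptor gene, held 8, 6, 6 and 6. NCF1, a subunit of the phagocyte oxidase, had 2 members, with 11, 10, 10 and 11 tags at 7.41 kb downstream and 12, 7, 14 and 6 at 1.67 kb upstream of its TSS, but it has near-identical copies close by, so its reads are uncertain.

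In the other lists the shares within 50 kb ran from 0% to 14.7%. Of 26 genes of inflammatory mediators and their receptors, 0 had a member within 50 kb. Of 26 genes of bZIP factors 1 did, of 34 genes of myeloid and stem cell regulators 5 (14.7%) and of 24 genes of the unfolded protein response and of the integrated stress response 3 (12.5%). Among the regulators, a region 47.0 kb upstream of FLT3, the receptor tyrosine kinase gene, in an intron of PAN3, had a C/EBP word and held 7 tags in p42 DMSO, 10 in p42 Tm and 7 in each p30 list. One in MN1 had a RUNX word and held 6, 6, 6 and 7, and one 2.33 kb upstream of a TSS of ZEB2 held 18, 17, 14 and 14. KLF2, a zinc finger regulator of quiescence, and NT5E, which encodes the ecto-nucleotidase CD73, each had 2 members. That 9.48 kb upstream of NT5E, 127 bp from an EV peak, held 13, 12, 16 and 11 tags. The other, 18.1 kb upstream, held 10, 5, 4 and 9, with no common direction between isoforms. The stress response genes were CHAC1 (8, 10, 7 and 8 tags), a glutathione-degrading ATF4 target, ERN1 (8, 11, 10 and 7), the IRE1α sensor, and SEL1L (10, 6, 9 and 4), a subunit of the endoplasmic reticulum degradation machinery. CHAC1 had more tags in Tm than in DMSO with both isoforms, SEL1L fewer, and ERN1 more with p42 and fewer with p30. These tags are not scaled for depth, and with p30 those of CHAC1 were 7 and 8, so no response to Tm is read from them. The ERN1 member lay 204 bp from an EV peak.

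The peaks at CEBPA itself did not tell the lines apart, so the labels could not be checked there. The gene lies on chromosome 19 from 33299934 to 33302534. The region over its TSS and the start of the gene, chr19:33302212-33303239, had a peak in all 6 lists, with 39 tags in both EV lists, 43 and 44 in p42 and 44 and 45 in p30. Of 25 regions within 50 kb of the gene 1 was a member. It lay at chr19:33304828-33304960, 2.37 kb upstream of the TSS in an exon of the divergent non-coding gene CEBPA-DT, and held 18 tags in p42 DMSO, 16 in p42 Tm, 20 in p30 DMSO and 18 in p30 Tm. Its fold enrichments of 2.95 to 3.76 were low for these tags, which stood on a high local background, and no word searched was near its summit.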

How the data were processed

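KO-52 cells carrying EV, p42 or p30 were profiled by ATAC-seq in DMSO or Tm. According to the submitters' processing notes, the tools were Trim Galore 0.6.6 for trimming, Bowtie2 2.4.4 for alignment (build hg38), Picard for duplicates and MACS2 for the peaks of the authors. A shift for the Tn5 cut and a mitochondrial filter are not given in the sources used here. The deposited lists are peaks of pooled replicates. The deposited fold enrichment is a ratio of summit pileup to local background, and the deposited −log10 p and −log10 q refer to the same background. None is normalized between lists.

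Summit tags and background were solved from fold and −log10 p, and gave whole tags for 100% of peaks within 0.001 in −log10 p. Depth is the lowest background times a genome size of 2700000000 bp over the shortest peak width. Percentiles rank −log10 q over a list. The mean summit averages the best peaks of a region. TSS and genes are from GENCODE 44. Intervals are 95% Wilson intervals and cover counting of regions only. Named regions were the 10 members highest in their lowest percentile over the p42 and p30 lists, the 5 highest with a C/EBP word and with the C/EBP:AP-1 word, genes of 6 lists with a member within 1000 bp or the 5 highest within 50 kb, the 5 windows of 100 kb with most members, and CEBPA. The result of 1 of these lists is not reported here. Members, lists and words were chosen with earlier results of these data known. The steps were tested on simulated data. Alternatives were other overlaps, thresholds, list sizes, depth scaling, EV distances, treatments, chromosomes, windows, words, promoter distances and ranking. Python 3.11.15, numpy 2.4.6, pandas 2.3.3, scipy 1.17.1 and matplotlib 3.10.9 were used.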

Additional observations from a re-analysis of the deposited data

How the results depend on the processing

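No paired analysis was possible because each list pools its replicates and no result comes from a test. The 2221 members fell to 976 where every p42 and p30 peak had to reach a −log10 q of 3, to 0 where it had to reach 10, and to 1433 with lists of equal size, and rose to 22299 with the DMSO lists only and 12039 with the Tm lists only. With equal list sizes regions of EV and p30 without p42 rose from 2844 to 5216. The share with a C/EBP word, 1.71%, became 2.97% at a −log10 q of 3 in the p42 and p30 lists, 2.67% at 3 in all 6 lists, 2.37% with equal list sizes, 0.900% and 2.75% in windows of 50 and 200 bp, and 14.9% with the looser word. That of AP-1 became 4.86% and 10.1% in those windows. The promoter share became 13.1% at a −log10 q of 3, 8.96% without EV peaks within 500 bp, and 7.34% and 21.0% at 500 and 2500 bp. The p42 minus p30 difference became 18.1 with equal list sizes and 10.5 with the DMSO lists only. With equal list sizes the percentiles were still those of the full lists. The cut to 187704 peaks took more weak peaks from the p42 DMSO list (254239) than from the p30 DMSO list (207679). The rise to 18.1 therefore does not show the difference at equal list size. These values cover 5 results: the number of members, the C/EBP, AP-1 and promoter shares and the p42 minus p30 difference. The other 35 of 54 values stayed within the interval of the main value or, for counts, within 1.5 times. Only the p42 minus p30 difference could change its sign, and it did not. The PU.1 and GATA shares were recomputed under 3 of the alternatives, chosen after seeing the data: PU.1, 10.4%, ran from 9.77% to 10.6%, and GATA, 1.35%, from 1.34% to 1.99%, the last at a −log10 q of 3 in all 6 lists. Causes were not tested. A depth-scaled threshold gave 2086 regions and held 93.2% of the members.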

Other observations

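A search over all 8192 words of 7 bases, counted on both strands within 100 bp of the mean summit, was led by parts of the PU.1 word and of its purine-rich flank. CTTCCTC was held by 23.3% of members against 16.7% of all regions, TGAGGAA by 13.3% against 8.97% and AAAGAGG by 12.5% against 9.31%. The 2 words furthest below all regions were of the SP/KLF type, and the third was the GATA word AGATAAG. The words overlap each other and were ranked on the same regions, so they are given with no test.

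The best peaks of a member in different lists lay close together. This follows in part from the rule, since members are merged from overlapping peaks and had a median width of 163 bp. No other set of regions stands beside these distances. Summits of p42 DMSO and p30 DMSO were a median of 24.0 bp apart and within 50 bp for 79.4% of members, and those of p42 DMSO and p42 Tm a median of 23.0 bp apart and within 50 bp for 80.1%. Regions in which a PU.1 and a looser C/EBP word both lay near the summit made up 1.44% of members (1.02 to 2.03), against 0.941% of all regions and 1.46% of those with a peak in both p42 lists alone. Members with a PU.1 word held the looser C/EBP word in 13.8% (9.94 to 18.8), and those without in 15.0%.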
